A study of Mus musculus with 9 samples.

Results

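The paired immunoglobulin-like receptors of mouse macrophages were described across 9 RNA sequencing libraries. The members were the rows of the deposited table whose symbol was Pirb, Pira1, Pira2, Pira4, Pira6, Pira7, Pira11 or Gm14548, which are 8 of the 14905 genes in the table, with 7 activating or activating-like copies and 1 inhibitory gene. They were chosen with their difference between genotypes already known, so that difference is given as a description and not tested for them. Macrophages were sorted from visceral adipose tissue as cells positive for both F480 and CD11b, from mice of the C57BL/6 background. The 5 KO libraries came from Nucb2-/- mice and the 4 WT libraries from wild type mice. Nucb2 encodes nucleobindin-2, the precursor of the peptide nesfatin-1, and the series concerns its role in insulin sensitivity during obesity. The C57BL/6 substrain, the way the Nucb2 allele was made, and the age, sex and diet of the mice are not given in the labels used here (the deposited table's own name holds the letters HFD, not spelled out there), and neither is whether each library came from its own mouse.

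PIR-B, the product of Pirb, is an inhibitory receptor whose cytoplasmic tail recruits the phosphatases SHP-1 and SHP-2. The PIR-A proteins, products of the Pira copies, have short tails and signal through the Fc receptor gamma chain, which recruits the kinase Syk. Both kinds bind MHC class I molecules, both are found on myeloid cells and B cells, and their nearest human relatives are the LILR receptors. The genes lie together in the leukocyte receptor cluster near one end of mouse chromosome 7, and the Pira copies are closely alike in sequence.

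Of the 8 members, 4 matched RefSeq (GRCm38.p6, the assembly that mm10 names) by symbol, and all 4 are on the minus strand of chromosome 7. Pirb spans 3712505 to 3720382, Pira1 3731626 to 3739943, Pira2 3836808 to 3845104 and Gm14548 3884201 to 3898159. The others, Pira4, Pira6, Pira7 and Pira11, had no entry under those symbols. At the RefSeq place of Pira1, GENCODE release M21 has the gene model Gm15922, from 3731630 to 3739889, with the type polymorphic pseudogene, a gene that is disrupted in the reference genome and intact in some other individuals or strains. Pirb, Pira2 and Gm14548 are protein coding there. The 250 bases before the transcript start in the RefSeq table are shown because they are so alike between copies whose read counts differed in opposite directions. That start lies inside the full gene span given above for Pira1, Pira2 and Gm14548, so the last bases of those 3 sequences fall within it. Capitals mark GAGGAA, on either strand, a core that the myeloid transcription factor PU.1 is known to bind.
Pirb, chr7:3720383-3720632: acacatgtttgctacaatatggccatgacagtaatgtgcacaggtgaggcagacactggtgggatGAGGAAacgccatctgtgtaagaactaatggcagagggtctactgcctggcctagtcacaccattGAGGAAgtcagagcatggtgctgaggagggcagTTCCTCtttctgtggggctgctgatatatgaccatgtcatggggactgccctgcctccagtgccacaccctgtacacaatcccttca
Pira1, chr7:3739918-3740167: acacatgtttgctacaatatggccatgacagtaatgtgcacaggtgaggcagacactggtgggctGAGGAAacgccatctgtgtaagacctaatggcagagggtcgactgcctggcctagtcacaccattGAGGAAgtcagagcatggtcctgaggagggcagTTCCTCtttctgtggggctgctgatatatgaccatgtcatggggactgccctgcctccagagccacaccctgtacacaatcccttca
Pira2, chr7:3845052-3845301: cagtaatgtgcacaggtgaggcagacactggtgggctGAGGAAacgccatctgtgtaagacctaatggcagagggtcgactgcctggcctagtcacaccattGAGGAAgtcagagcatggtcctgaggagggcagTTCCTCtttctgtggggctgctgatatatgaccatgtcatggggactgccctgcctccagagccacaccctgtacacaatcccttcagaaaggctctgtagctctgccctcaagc
Gm14548, chr7:3898142-3898391: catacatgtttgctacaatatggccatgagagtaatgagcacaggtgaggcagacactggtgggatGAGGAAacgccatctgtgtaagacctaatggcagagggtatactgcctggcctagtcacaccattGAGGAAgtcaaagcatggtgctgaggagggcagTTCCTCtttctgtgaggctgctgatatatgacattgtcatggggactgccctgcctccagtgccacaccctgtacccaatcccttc

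The Pira1 and Pira2 sequences were identical over the 222 bases that they have in common. Pira1 differed from Pirb at 5 of 250 bases, and Gm14548 differed from Pira1 at 13 of 249. Each of the 4 sequences held GAGGAA at 2 places on its own strand and at 1 place on the other. At least 1 match on either strand was present in 23.3% of the 32851 sequences of the same length in the RefSeq table, and at least 2 in 3.54%. The longer GAGGAAGT, which contains the shorter motif, occurred once in each of the 4 and in 2.44% of all. These are matches of letters, not sites shown to be bound.

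The transcripts are nearly as alike. In GENCODE M21 the transcript at the Pira1 place and that of Pira2 are each 3462 bases long and differ at 17 bases, all in the part that codes for protein in Pira2, so 99.5% of their bases are identical. Gm14548 was 97.8% identical to each of them over aligned bases. Pirb was 94.6% identical to Gm14548 over an alignment of 2132 columns and 80.5% to Pira2 over 3531 columns. The second alignment takes in a longer part of the transcripts, so these percentages do not rank the copies by their likeness to Pirb. The stretch of 75 coding bases in which Pira1 and Pira2 differ most is shown, since a read must cover such bases to be told apart. Capitals mark bases that differ from the Pira2 line.
Pira2: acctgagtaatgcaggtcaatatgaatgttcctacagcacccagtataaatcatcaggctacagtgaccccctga
Pira1: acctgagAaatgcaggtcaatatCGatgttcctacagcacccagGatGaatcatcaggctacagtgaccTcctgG
Gm14548: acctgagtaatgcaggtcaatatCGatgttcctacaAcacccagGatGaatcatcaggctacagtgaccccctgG
Pirb: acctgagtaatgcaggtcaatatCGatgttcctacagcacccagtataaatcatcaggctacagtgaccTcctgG

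Within these 75 bases Pira1 differed from Pira2 at 7 positions, Gm14548 at 6 and Pirb at 4. Of all stretches of 50 bases along the transcript at the Pira1 place, 8.7% occurred in no other gene of GENCODE M21. The share was 6.04% for Pira2, 28.8% for Gm14548 and 62.7% for Pirb. For stretches of 100 bases it was 20.8%, 13.5%, 48.1% and 75.4% in the same order. Most short reads from Pira1 and Pira2 therefore have more than 1 place to map. How the authors assigned such reads is not given in the sources used here, so each single Pira value is uncertain.

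The deposited values are read counts divided by 1 factor per library, and a value under 1 is set to 1. The spacing of the low values, taken as the worth of 1 read, gave 74938805 to 85201309 reads in a deeper set of 6 (replicates 1 to 4 of KO with 1 and 2 of WT) and 51149953 to 55006130 in the 3 shallower libraries. The Nucb2 count was 1500 ± 219 in KO against 4313 ± 791 (SD, n = 5 and 4), without overlap, so the transcript was lower and still present in KO. All 12 macrophage markers were detected, with summed counts of 1569103 to 1734309 in KO and 1621459 to 1820590 in WT, of which Lyz2 alone gave 809546 against 825447 on average. Of these markers 0 passed in limma and 6 had an unadjusted p under 0.05. C1qa, C1qc and Fcgr1 were 3 that lay lower in KO without overlap, at 25246 against 35388 (adjusted p = 0.067), 33466 against 43508 (0.0945) and 10015 against 14253 (0.12). Adgre1 and Itgam, the genes of the sorted antigens, stood at 91199 against 106114 and 23739 against 20943. In the fit across all genes (limma, Benjamini-Hochberg adjusted p under 0.05) 46 of 14905 genes passed. That count fell to between 5 and 38 when 1 library was left out and to 0 in the 6 deeper libraries, where 1039 had an unadjusted p under 0.05. Every p here therefore rests on how far single libraries spread, and part of that spread may be technical.

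Pirb was the most abundant member and showed the smallest difference between the genotypes. Its normalized counts were 37542, 35990, 38938, 37282 and 36512 in KO replicates 1 to 5, and 33653, 36049, 36481 and 41879 in WT replicates 1 to 4. All KO libraries lay inside the WT range. The means were 37253 ± 1126 in KO against 37016 ± 3473 in WT (SD, n = 5 and 4), a log2 difference of 0.01, and Pirb ranked 278 of 14905 genes by its mean over all libraries. The coefficient of variation among KO libraries was 3.02%, against a median of 8.28% over 130 genes whose KO mean was within 20% of that of Pirb, and 9.38% among WT libraries, against 7.21% over 120 genes.

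Pira1, an activating copy, was scarce in every WT library and abundant in every KO library. It stood at 2908, 1598, 1522, 857.5 and 1218 normalized counts in KO and at 8.23, 41.5, 1.27 and 28.7 in WT. The lowest KO library was far above the highest WT library, and WT replicate 3 held the equivalent of 1 read. The KO mean of 1621 ± 777 (SD, n = 5) was 81.4 times the WT mean of 19.9 ± 18.5 (SD, n = 4), and the difference of log2(count + 1) was 6.87. Without WT replicate 2 the ratio was 127, and with 1 library left out the log2 difference lay between 6.04 and 7.45. Pira1 also varied widely within KO, with a coefficient of variation of 47.9% against a median of 20.2% over 1219 genes of like KO mean.

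Pira7, another activating copy, was higher in KO by a smaller factor. Its counts were 1412, 870.4, 1156, 935 and 782.8 in KO and 304.4, 247.2, 416.2 and 495.2 in WT. The groups did not overlap, and the KO mean was 2.82 times the WT mean. The difference of log2(count + 1) was 1.51 in all libraries and 1.96 in the 6 deeper ones. In the 3 shallower ones, 1 KO library against 2 of WT, it was 0.79. Pira4 lay at 842.5, 319.2, 518.4, 546.6 and 404.8 in KO and at 208.4, 215.9, 345.4 and 242.8 in WT. Here KO replicate 2 fell below WT replicate 3, and the groups overlapped. The Pira4 means differed by a factor of 2.08.

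Gm14548 and Pira11 showed the reverse of Pira1. Gm14548 is annotated as a protein-coding copy of the Pira type. Its counts were 1278, 1307, 1555 and 1318 in WT, and in KO they were 4.11 in replicate 3, 10.2 in replicate 5 and at the floor of 1 in replicates 1, 2 and 4. The floor stands for 0 or 1 read there. The spacing gave 5 and 8 reads in the 2 KO libraries above the floor, and between 966 and 1417 reads in the WT libraries. The WT mean of 1364 ± 128 (SD, n = 4) was 395 times the KO mean, which counts floor values as 1, and 768 times it without KO replicate 5. Pira11 stood at 253.2, 242.6, 502.3 and 234.6 in WT, at 6.98 and 1.27 in KO replicates 4 and 5, and at the floor in KO replicates 1 to 3. Both genes were thus close to absent from KO and clearly present in all WT libraries.

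Pira2 and Pira6, activating copies that took the most reads in WT without regard to length, were lower in KO and well above the floor. Pira2 had 1962, 1344, 1480, 1392 and 1064 normalized counts in KO and 2516, 3038, 2506 and 3889 in WT, so the WT mean was 2.06 times the KO mean. Pira6 had 3752, 3273, 3813, 3503 and 3158 in KO and 4221, 4050, 5080 and 4949 in WT, and its WT mean was 1.31 times the KO mean. Neither overlapped between the groups. The difference of log2(count + 1) of Pira6 was -0.38 in all libraries and -0.21 in the 6 deeper ones.

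**Figure D1:**
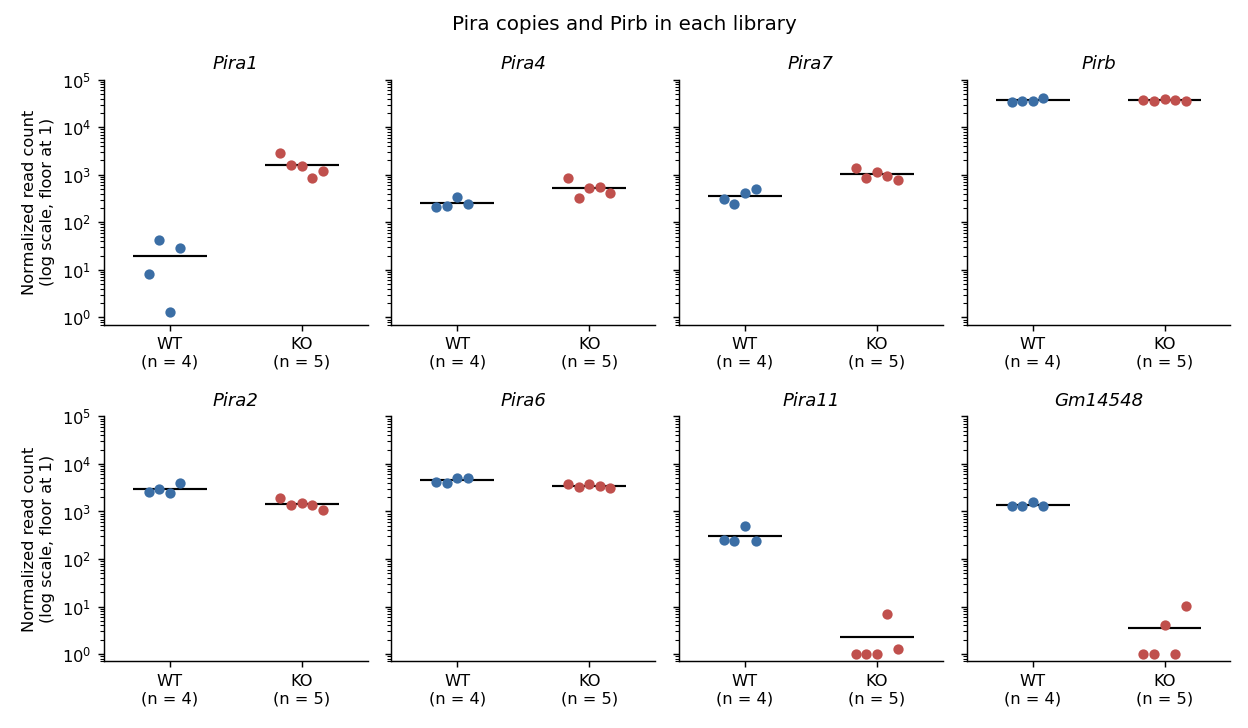
Normalized read counts (log axis, floor at 1) of the 8 members, 1 point per library, for 4 WT and 5 KO libraries, with the group mean as a bar. Pira1 lies above 850 in each KO library and below 42 in each WT library, Pira11 and Gm14548 lie at or below 10.2 in KO, and Pirb lies at about the same level in both groups.

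In the fit across all genes 5 of the 8 members passed, with 0.309% of the 14905 genes passing. Pira1 and Pira7 were the 2 higher (0.181% of genes) and Pira2, Pira11 and Gm14548 the 3 lower (0.127%). Ranges of KO and WT did not overlap in 6 members, and in 3.15% of all genes. Pira1 and Pira7 were higher without overlap (1.55% of genes), and Pira2, Pira6, Pira11 and Gm14548, 4 members, lower (1.6%). Because the members were chosen on this contrast, these counts describe them and show nothing further. Leaving out 1 library brought the number of members that passed to 2 or 3: without KO replicate 3 they were Pira11 and Gm14548, and without any other library Pira1, Pira11 and Gm14548. In the 6 deeper libraries it was 0, while 6 members had an unadjusted p under 0.05 (limma, beside 6.97% of all genes). Ranges of 7 members did not overlap there, but 4 KO and 2 WT libraries separate more easily than all 9 do. The share of all genes without overlap was not computed for that set.

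Markers of mast cells, which also carry these receptors, moved with genotype in the same libraries. Of 8 measured, 4 were lower in KO (limma, adjusted over all genes) and 0 higher. With 1 library left out, 0 to 2 of the 8 passed, and in the 6 deeper libraries 0 did (6 with an unadjusted p under 0.05). There 7 lay without overlap, which 4 KO against 2 WT libraries reach more easily. Their summed counts were 1850 to 3492 in KO and 6081 to 10799 in WT, and Fcer1a was at the floor in every KO library. Of 8 dendritic cell markers, Cd209a was higher, at 7634 ± 1014 against 4154 ± 1182 (SD, n = 5 and 4; limma adjusted p = 0.022), and 7 did not pass. Leaving out 1 library ended that call except where the library was WT replicate 1, and 0 passed in the 6 deeper libraries (3 with an unadjusted p under 0.05). The summed counts of the list, 10774 to 13798 in KO and 6819 to 10416 in WT, are mostly Cd209a and Ccr7. Clec9a went the other way, at 1 to 72.9 in KO and 145 to 803 in WT (log2 difference -3.49, SE 1.03, adjusted p = 0.22). Itgae was at the floor in every KO library and ranged from 1 to 128 in WT. B cell, neutrophil, eosinophil, and T and NK cell markers had overlapping sums, and 0 of them passed (limma, 1 with an unadjusted p under 0.05). That 1 was the neutrophil marker Mmp9, higher in KO without overlap, at 432.6 against 112.4 (limma adjusted p = 0.089). The B cell, neutrophil and eosinophil sums are mostly Cd79b, Csf3r and Ear2, so their overlap says little about the other markers. The part of these other cells in the Pira values was not tested, and in bulk RNA fewer cells of a type and less RNA per cell cannot be told apart.

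Summed over the 7 activating copies, the large differences between single copies partly offset each other. The difference of means, KO minus WT, was 2539 normalized counts for Pira1, Pira4 and Pira7 together. It was -4281 for Pira2, Pira6, Pira11 and Gm14548 together. The sum over all 7 was 10879, 7407, 8494, 7241 and 6640 normalized counts in KO and 8790, 9142, 10406 and 11157 in WT. The groups overlapped through KO replicate 1 alone, and every other KO library lay below every WT library. The mean was 8132 ± 1675 in KO against 9873 ± 1102 in WT (SD, n = 5 and 4), a ratio of 0.824. Its log2 difference was -0.30 in all libraries and -0.10 in the 6 deeper ones. In the 3 shallower ones, 1 KO library against 2 of WT, it was -0.70. Without Gm14548 the difference was -0.08 in all libraries and 0.13 in the 6 deeper ones. With Gm14548 kept and KO replicate 1 left out, it was -0.41.

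The shares of that sum did not overlap between the genotypes in any copy but Pira6. Pira6 gave 43.9% ± 5.55 of it in KO against 46.4% ± 2.38 in WT (SD, n = 5 and 4), with overlapping ranges. Pira1 gave 19.3% ± 5.45 in KO against 0.204% ± 0.195 in WT, and Pira7 12.6% ± 0.811 against 3.65% ± 0.747. Pira4 gave 6.36% ± 1.38 in KO against 2.56% ± 0.516 in WT, and its share, unlike its count, did not overlap between the groups. In the other direction, Pira2 gave 17.8% ± 1.17 in KO against 30.2% ± 4.86 in WT, Gm14548 0.0477% against 13.9%, and Pira11 0.03% against 3.12%. The shares of Pira7 and Pira2 spread less over the KO libraries than their counts, which follow the high sum of KO replicate 1.

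**Figure D2:**
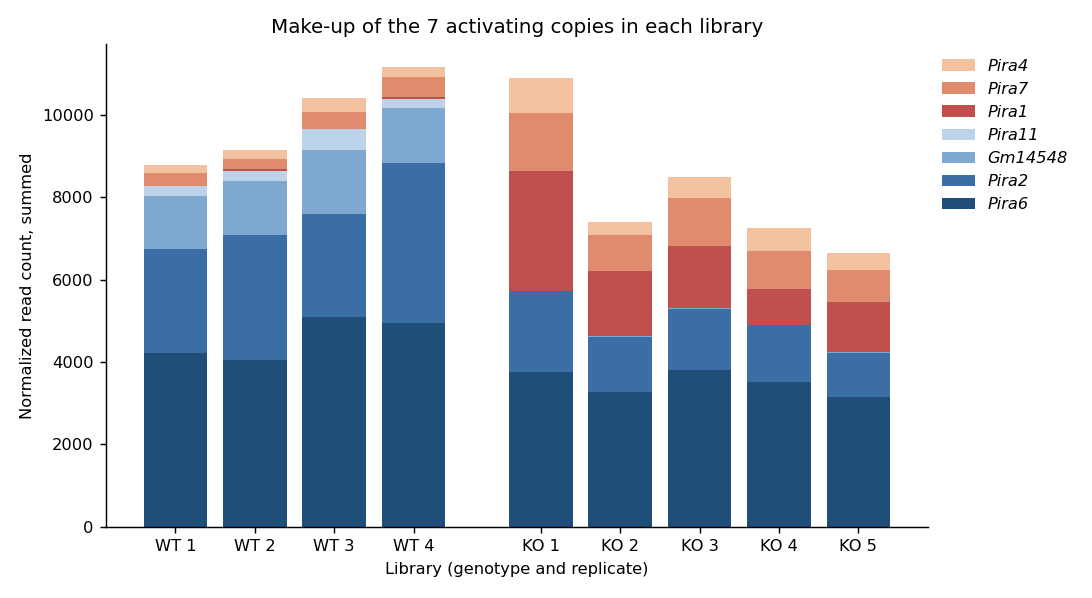
Stacked normalized read counts of the 7 activating copies in each library (bars start at 0, colours stand for copies). Blue shades are the copies lower in KO and red shades those higher in KO; Pira1 takes 11.8% to 26.7% of the bar in KO and at most 0.454% in WT.

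Pira1 and Pira2, the pair of near-identical transcripts, were also added together, a sum chosen after their values were seen. It came to 4870, 2942, 3003, 2249 and 2282 in KO and 2525, 3079, 2507 and 3918 in WT. The group means were 3069 ± 1067 and 3007 ± 662 (SD, n = 5 and 4), and KO replicate 1 was the highest library. Within the pair, Pira1 took 59.7%, 54.3%, 50.7%, 38.1% and 53.4% of the reads in KO and 0.326%, 1.35%, 0.0505% and 0.731% in WT. The pair thus had overlapping totals in the 2 genotypes and was divided differently between its copies.

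Activating counts as a percentage of the Pirb count were 29.0%, 20.6%, 21.8%, 19.4% and 18.2% in KO and 26.1%, 25.4%, 28.5% and 26.6% in WT. KO replicate 1 was the highest of all 9 libraries, and the other 4 KO libraries were below every WT library. The mean was 21.8% ± 4.24 in KO against 26.7% ± 1.35 in WT (SD, n = 5 and 4), a log2 difference of -0.31, which was -0.42 without KO replicate 1. Without Gm14548 the percentages were 21.8% ± 4.24 and 22.95% ± 1.14, a log2 difference of -0.09. These are ratios of reads, not of receptors, and they are not corrected for length because 4 copies have no matched transcript.

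**Figure D3:**
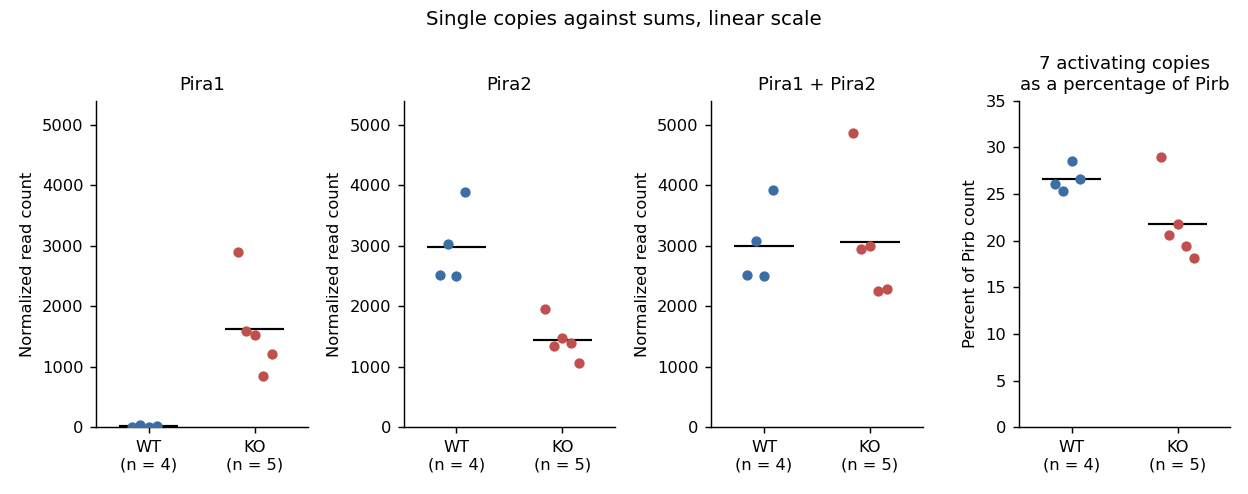
Normalized read counts of Pira1, Pira2 and their sum, and the 7 activating copies as a percentage of Pirb, on linear axes from 0, with 1 point per library and the group mean as a bar. Pira1 and Pira2 separate the genotypes in opposite directions, while their sum has means of 3069 in KO and 3007 in WT.

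Levels cannot be compared between genes without their length, and a value per length was possible for 4 members with the GENCODE transcript lengths. Per kilobase of transcript Pirb had a mean normalized count of 9742 ± 294 in KO against 9680 ± 908 in WT (SD, n = 5 and 4). In WT the order was Pirb, then Pira2 at 863 ± 188, Gm14548 at 641 ± 60.2 and Pira1 at 5.75 ± 5.34. Pira2 ranged from 723.9 to 1123 and Gm14548 from 600.5 to 730.7, so these neighbours in the order overlapped at 1 end. In KO Pirb was followed by Pira1 at 468 ± 224 and Pira2 at 418 ± 94.4, whose ranges overlapped, and by Gm14548 at 1.63 ± 1.88. The length of Gm14548 is 2128 bases against 3462 for Pira1 and Pira2, and a model that is too short would raise its value. The share of 50-base stretches found in no other gene also differs, at 6.04% for Pira2, 8.7% for Pira1, 28.8% for Gm14548 and 62.7% for Pirb. Its part in these orders was not tested, so they are orders of assigned reads.

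Deviations from the group means were compared between members over the 9 libraries, as a description. They were most alike for Pira6 and Pira7 (r = 0.93), followed by Pira4 with Pira6 (0.73) and with Pira7 (0.70). Pira2 deviated with Pira7 (0.68), Pirb (0.65) and Pira1 (0.63), and Pira7 with Pirb (0.67). Pira1 did not deviate with Pira4, Pira6 or Pira7 (-0.19, -0.27 and -0.04). It went against Pira11 (-0.62), and Pira2 went against Gm14548 (-0.54). The r of Pira1, Pira11 and Gm14548 take in libraries near the floor, where few reads set the log value. The parts of shared reads and of library depth in these r values were not tested, and Pira4, Pira6 and Pira7 had no matched sequence to compare.

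Genes around the members were looked up within 1 Mb of a member, which gave 39 genes of the table outside the members. Of these, 0 passed in limma over all genes in either direction, 3 had an unadjusted p under 0.05, and in 0 of them the ranges did not overlap. Their median log2 difference was -0.02, beside 0.02 over all genes. The closest in position to Pirb is Rps9, a ribosomal protein gene whose lower coordinate is 7.4 kb from that of Pirb, at 105186 ± 5271 normalized counts (KO) and 108747 ± 3700 (WT). Lair1, an inhibitory collagen receptor, and Ppp1r12c, a phosphatase subunit, had the smallest p of the group. Lair1 stood at 14198 ± 1924 against 18316 ± 4158 (log2 difference -0.35, SE 0.14, limma adjusted p = 0.44), and Ppp1r12c at 1249 ± 225 against 1778 ± 402 (-0.50, SE 0.21, adjusted p = 0.47; SD, n = 5 and 4). The largest log2 difference around the members belonged to a gene of low count, Ttyh1, at 2.25 (SE 1.36). Nucb2 is on the same chromosome, 112.8 Mb from Pirb.

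**Figure D4:**
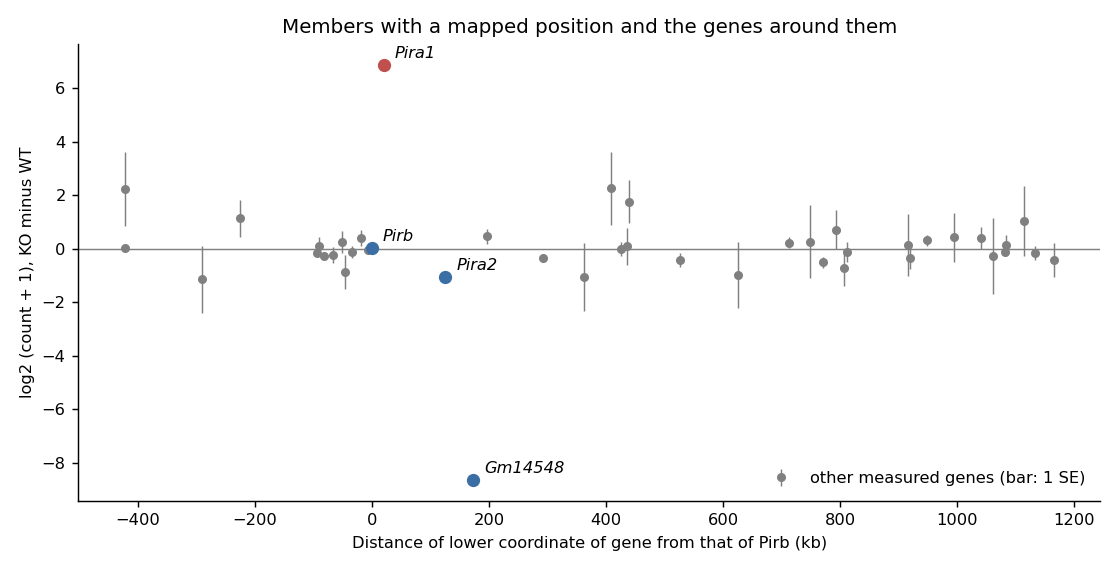
Difference of log2(count + 1), KO minus WT, against the distance in kb of each gene's lower coordinate from that of Pirb, for the 4 members with a position (coloured) and 39 other measured genes (grey, bars of 1 SE). Pira1 and Gm14548 lie at 6.87 and -8.64, while the grey points lie between -1.14 and 2.25.

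Among receptor relatives in the same cluster or family, 6 of 19 listed symbols were in the table, and 0 of these 6 passed. Some listed symbols are other names of the same gene, and Gm15922 is the model at the Pira1 place. The symbols not found therefore do not give a number of unmeasured genes. Lilra6, for which RefSeq gives the older name Pira3, was at 1275 ± 508 (KO) and 895 ± 237 (WT), with a log2 difference of 0.46 (SE 0.29, limma adjusted p = 0.68; SD, n = 5 and 4). Its transcript is 93.9% identical to that of Pira2 over aligned bases, and 71.6% of its stretches of 50 bases occurred in no other gene. Adding it to the activating copies gave 25.2% ± 5.35 of the Pirb count in KO and 29.1% ± 0.934 in WT. The relatives Lilrb4a, an inhibitory receptor, and Lilr4b differed by -0.06 and -0.11 on the log2 scale.

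A list of 15 genes of activating receptor signalling, wider than the gamma chain and Syk named for PIR-A above, was all measured. Of these 15 genes 0 passed. Of them 13 lay below 0 and 2 above, with a median log2 difference of -0.16, and 6 had an unadjusted p under 0.05. Lcp2, the adaptor SLP-76, had a mean normalized count of 15271 ± 1264 in KO against 18916 ± 1905 in WT (log2 difference -0.31, SE 0.09, limma adjusted p = 0.22). Tyrobp, the adaptor DAP12, had 101246 ± 6052 against 115248 ± 4273 (-0.19, SE 0.06, adjusted p = 0.30). Fcer1g, the gamma chain that PIR-A needs, had 96590 ± 5158 against 109260 ± 7335 (-0.18, SE 0.07, adjusted p = 0.39; SD, n = 5 and 4 throughout). Summed over the 15 genes, counts were 284068 to 321660 in KO and 324172 to 355349 in WT.

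Of 8 genes on the inhibitory side, 0 passed, 5 lay below 0 and 2 had an unadjusted p under 0.05. Ptpn6, which encodes SHP-1, had a mean normalized count of 10037 ± 625 in KO against 12894 ± 1843 in WT (log2 difference -0.35, SE 0.10, limma adjusted p = 0.19), without overlap. Csk, a kinase that restrains Src family kinases, had 2589 ± 448 against 3529 ± 417 (-0.46, SE 0.15, adjusted p = 0.285). Ptpn11, which encodes SHP-2, had 1121 ± 159 against 979.5 ± 99.3 (0.19, SE 0.20, adjusted p = 0.82; SD, n = 5 and 4 throughout). Sums over the list overlapped, at 42084 to 49797 in KO and 40545 to 55813 in WT.

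Of 15 ligand genes, 0 passed, 13 lay below 0, and the median log2 difference was -0.36. In limma 6 had an unadjusted p under 0.05. B2m, H2-Q7 and H2-M3 lay lower in KO without overlap, as did 1.6% of all genes. Sums over the list did not overlap, at 502030 to 566868 in KO and 591218 to 814917 in WT, with B2m as the largest part. B2m, the light chain of MHC class I, had a mean normalized count of 282101 ± 10475 in KO against 364534 ± 54272 (-0.36, SE 0.09, limma adjusted p = 0.10), without overlap. H2-Q7, a nonclassical class I gene, had 1270 ± 222 against 2573 ± 1064 (-0.95, SE 0.23, adjusted p = 0.11; SD, n = 5 and 4). The classical genes H2-K1 and H2-D1 differed by -0.46 and -0.27. Among ligands known from the nervous system, Rtn4, which encodes Nogo, had 9567 ± 1854 against 9066 ± 722, and Mag had 137 ± 73.9 against 202 ± 139. Omg had 22.1 ± 44.5 against 33.2 ± 43.2 and reached the floor of 1 in both groups. Over the 79 genes of these lists and the neighbours, 17 had an unadjusted p under 0.05 (21.5%, beside 9.14% of all genes). In the 6 deeper libraries it was 7 (8.86%, beside 6.97%), and it was 12 without WT replicate 3 or without WT replicate 4.

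**Figure D5:**
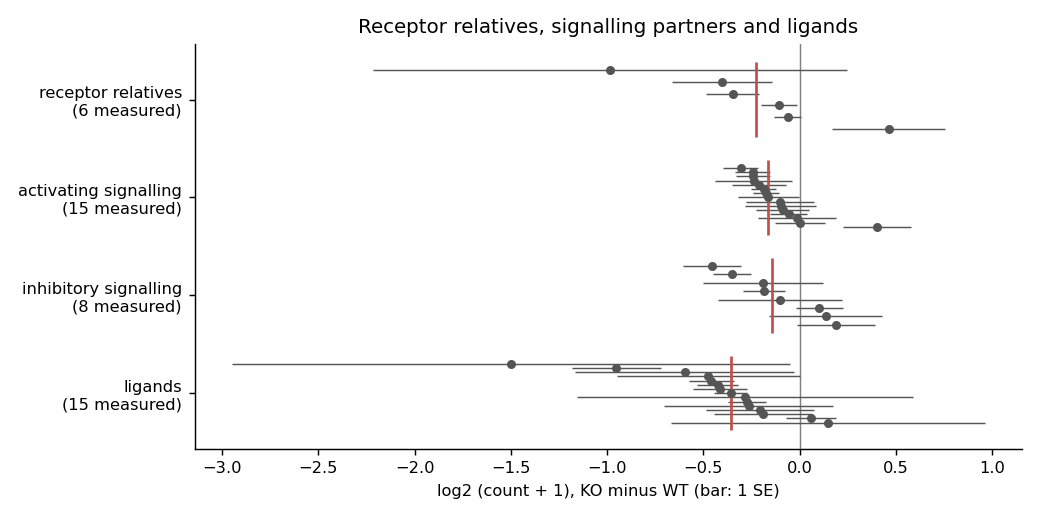
Difference of log2(count + 1), KO minus WT, of each measured receptor relative, signalling gene and ligand (points, bars of 1 SE), with the median of each list as a red line. The medians are -0.23, -0.16, -0.14 and -0.36, and 0 of the points pass the test over all genes.

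Candidates for a likeness to a member were 7288 genes outside the members, with a mean of at least 648.6. Predicted names (Gm with digits, or ending in Rik) were left out. Genes whose pattern over the 9 libraries was most like that of a member were ranked among them by Pearson's r of log2(count + 1). For Pirb they were Cdc25b, Tlr13 and Sgms2 (r = 0.93, 0.91 and 0.90; Spearman's rho 0.70, 0.80 and 0.90). For the activating sum they were Psmb3, Ctsh and Pts (0.97, 0.95 and 0.95; rho 0.97, 0.92 and 0.93). For Pira1, which separates the genotypes, they included Cnbd2 and Icam2 (0.96 and 0.95; rho 0.95 and 0.93). For Gm14548 they were Nucb2, Ubl3 and Idh3b (0.97, 0.94 and 0.93; rho 0.91, 0.85 and 0.81). The r of deviations from the group means was 0.68 and 0.77 for these genes of Pira1 and 0.15 to 0.57 for the Gm14548 set, so a large part of those likenesses is the difference between the groups. Each r is the highest of many and is a description of these libraries.

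Reported differences between C57BL/6 colonies were looked up for 4 genes, chosen with earlier results of these data known. Nnt, which is disrupted in C57BL/6J and intact in C57BL/6N, stood at a mean normalized count of 3638 ± 881 in KO against 2205 ± 204 in WT without overlap (log2 difference 0.69, SE 0.17, limma adjusted p = 0.12). Wdfy1 stood at 3174 ± 397 against 751 ± 221 (2.12, SE 0.21, adjusted p = 0.00036), a call that held without any 1 library and not in the 6 deeper ones, while Ide and Entpd4 overlapped between the groups (SD, n = 5 and 4). A part of colony origin in the Pira values was not tested.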

How the data were processed

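Values came from 1 deposited table with 9 columns, each matched to a library by name. They are a signal on a linear scale, made by the authors: the spacing of low values within a library was constant (in each library all values between 1 and 200 lay within 0.1 of a whole step), as for read counts divided by a factor. Every value under 1 had been set to 1, and the lowest gene mean was 5.09. Per the submitters' processing notes, mm10, HISAT, DESeq2, Partek and CASAVA 1.8.2 were used, in roles that the notes leave out. The sources used here do not give the gene annotation or the handling of reads that fit several genes. Because of the floor no count test was run.

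Genes were tested with limma 3.58.1 in R 4.3.3 on log2(count + 1), with a mean-variance trend, all 9 libraries and genotype as the only term, with Benjamini-Hochberg adjustment over 14905 genes at 0.05. Requiring 4 libraries with a value of 1 or more removed 0 genes. The code was first tested on simulated data. Sequences and positions came from RefSeq (GRCm38.p6) and GENCODE M21 and were compared with Biopython 1.88, and figures were drawn with matplotlib 3.10.9 under Python 3.11.15. The members and gene lists were chosen with earlier results of these data known. All members are named, with the genes of each list that passed or had the 2 smallest p and the 3 genes most like Pirb, the activating sum, Pira1 and Gm14548. Of those most like Pira1, 1 is not reported here. Fcer1g, Ptpn11, H2-K1, H2-D1, H2-M3, Rtn4, Mag, Omg, Rps9, Ttyh1, Lilrb4a, Lilr4b, Cd209a, Ccr7, Clec9a, Fcer1a, Itgae, Mmp9, Cd79b, Csf3r, Ear2, Lyz2, C1qa, C1qc, Fcgr1, Adgre1 and Itgam were named outside that rule, after their values were seen. Alternatives were other pseudocounts, filters and scalings, a replicate block, each library left out, and, added after seeing the data, the 6 deeper libraries, depth class as a term, Lilra6 as an activating copy, and marker lists and ratios of means without each library.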

Additional observations from a re-analysis of the deposited data

Results flagged for a closer look

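In 4 of the 40 groups of values checked, 1 library lay far from the others of its group; chance alone marks about 1 in 20 groups. Pira11 stood at 502.3 normalized counts in WT replicate 3, where the other 3 WT libraries lay between 234.6 and 253.2. In the same library Gm14548 stood at 1555, above 1278 to 1318 in the others. Pira11 stood at 6.978 in KO replicate 4, with the other KO libraries between 1 and 1.273, a difference of 9 reads against at most 1. The sum of Pira1 and Pira2 stood at 4870 in KO replicate 1, with the next KO library at 3003.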

How the results depend on the processing

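Each member kept the direction of its difference, Pirb apart, under 17 alternatives; the Pirb log2 difference lay between -0.03 and 0.10 and that of Pira1 plus Pira2 between -0.19 and 0.17. Under a pseudocount of 10 the log2 differences of Pira11 and Gm14548 were -4.65 and -6.71, since both are near the floor in KO. The log2 difference of the activating sum lay between -0.41 and -0.08 and that of the activating to inhibitory ratio between -0.417 and -0.094, the last without Gm14548. Leaving out Gm14548 within the 6 deeper libraries turned the direction of both, to 0.13 for the sum and 0.025 for the ratio. Genes that passed numbered 34 to 52 under other pseudocounts, filters and scalings, 5 to 38 with 1 library left out (8, 14, 5, 8 and 9 without KO replicates 1 to 5, and 38, 10, 18 and 19 without WT replicates 1 to 4), 33 with depth class as a term, and 0 in the 6 deeper libraries (1039 at an unadjusted p under 0.05). With the replicate block, which drops KO replicate 5, it was 0 (1104 at an unadjusted p under 0.05), the members that passed were 0 and the 7 with an unadjusted p under 0.05 were as many as before. Same-numbered libraries correlated between -0.05 and 0.09 in their deviations, and 2 of 4 KO libraries correlated best with their own number. So few correlations cannot settle whether same-numbered samples were paired. Of the 79 list and neighbour genes, 0 passed in limma under each of the 18 alternatives. The edgeR alternative was not run because of the floor. Depth limits Pira11 and Gm14548 in KO and Pira1 in WT, which rest on at most 45 reads a library.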
